A study of Homo sapiens with 24 samples.

Results

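The cytosolic ribosome is built from ribosomal RNA and a fixed set of proteins, each of which is, in most cases, the product of 1 active gene. The genes described here are those whose symbol is RPL or RPS with a number and an optional letter A or X, together with RPLP0, RPLP1, RPLP2 and RPSA. That rule found 77 of the 14114 genes of the table, 46 of the large (60S) subunit, its stalk proteins included, and 31 of the small (40S) subunit. No measured value was used to choose them. They were followed in 3 human breast cancer cell lines, MDA-MB-157, MDA-MB-231 and also MDA-MB-468, which the labels call basal-subtype lines without oestrogen or progesterone receptor and without HER2 overexpression. Each line was treated for 3 h with DMSO (0.05% by volume), thalidomide at 1000 nM, BETi-211 at 1000 nM, an inhibitor of the BET bromodomain proteins, or BETd-246 at 100 nM, a degrader of the same proteins. The 12 groups of line and treatment held 2 libraries each, 24 in all. The series description says that the biological replicates were independent. DMSO and thalidomide, which binds cereblon, a substrate receptor of a ubiquitin ligase, were both controls, so each line had 4 control libraries. Each line is an established culture from 1 tumour, so the 3 lines are 3 genetic backgrounds and not replicates of each other. Where 3 values follow each other, the first is for MDA-MB-157, the next for MDA-MB-231 and the last for MDA-MB-468.

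Ribosomal protein genes are among the most strongly transcribed genes of a growing cell. Most of their products are needed in equal numbers, since each ribosome carries about the same set. Their transcripts start with a stretch of pyrimidines, the terminal oligopyrimidine (TOP) motif, through which their translation is controlled as a group by growth signals. BET proteins bind acetylated histones and help RNA polymerase to leave promoters, and many genes lose transcripts within hours when they are inhibited or removed. Many of the ribosomal protein genes carry small nucleolar RNA genes in their introns, and nearly all of them have given rise to processed pseudogenes, copies of the spliced transcript elsewhere in the genome.

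The start regions of these genes are shown because they carry the feature that unites them. RefSeq start windows (GRCh38.p14) were at hand for 62 of the 77 genes, some with more than 1 start. Below, each sequence runs from 30 bases before to 20 bases after the annotated start, on the strand of the gene, and capitals mark the pyrimidine run nearest the start. RPS18 had the highest mean level of all, RPL39 the second highest, and RPL7A the longest run.
RPS18 (chr6:33272045-33272094, plus strand): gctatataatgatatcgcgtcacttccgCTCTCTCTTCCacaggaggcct
RPL39 (chrX:119791611-119791660, minus strand): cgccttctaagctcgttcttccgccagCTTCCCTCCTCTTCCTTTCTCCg
RPL7A (chr9:133348188-133348237, plus strand): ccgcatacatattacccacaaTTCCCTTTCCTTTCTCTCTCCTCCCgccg
The next 4 belong to genes on which later results turn: RPL12, which differed from the other members under BETi-211, the stalk gene RPLP1, RPL36A, whose change with BETd-246 differed between lines, and RPL28, which had one of the larger rises in MDA-MB-468.
RPL12 (chr9:127451387-127451436, minus strand): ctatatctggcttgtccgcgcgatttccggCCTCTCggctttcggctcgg
RPLP1 (chr15:69452788-69452837, plus strand): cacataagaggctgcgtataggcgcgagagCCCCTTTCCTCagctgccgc
RPL36A (chrX:101390981-101391030, plus strand): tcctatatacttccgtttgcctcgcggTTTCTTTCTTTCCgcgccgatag
RPL28 (chr19:55385902-55385951, plus strand): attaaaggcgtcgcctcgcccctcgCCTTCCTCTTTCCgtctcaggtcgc
RPL9, the member with the lowest mean level, and RPS15 are shown without capitals since no run reached the positions searched at the annotated start. In RPL9 a pyrimidine run begins just past those positions.
RPL9 (chr4:39458903-39458952, minus strand): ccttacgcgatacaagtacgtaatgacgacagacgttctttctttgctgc
RPS15 (chr19:1438366-1438415, plus strand): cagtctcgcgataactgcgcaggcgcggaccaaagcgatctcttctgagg

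A run of at least 5 pyrimidines lay within 5 bases of an annotated start in 56 of the 62 genes (90.3%), against 39.1% of the 27243 other genes with a start window and 41.9% of the 9503 others that were also in the expression table. The longest run at a start had a median of 11 bases in the members and 4 bases in the other measured genes, and reached 25 bases in RPL7A. The genes without a counted run were RPL4, RPL9, RPL15, RPL27, RPS15 and RPS29. A run that begins 5 bases after the annotated start, as in RPL4 and RPL9, was not counted. Other letters were searched on both strands of the 300-base window, 250 before and 50 after the start. CCGGAA, the core bound by ETS-family factors, was in 35 of 62 members (56.5%), against 20% of all other genes and 35.5% of those in the table. GGGCGG, the core of a GC box, was in 36 of 62 (58.1%), against 48.3% and 78.1%. AAGATGG, a core bound by YY1, was in 8 (12.9%), against 7.10% and 9.57%. CACGTG, an E-box, was in 4 (6.45%), against 8.78% and 12.6%, and TATAAA was in 5 (8.06%), against 14% and 8.05%. None of the searched motifs contains another. A match is a match of letters only, and the annotated starts were not measured in these cells.

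The table gives FPKM, a count of fragments divided by transcript length and by library size, so levels can be compared between genes per length but are shares of a library and not amounts per cell. More transcripts per cell and fewer transcripts of other genes cannot be told apart. Depth, estimated from the step that 1 fragment makes, was 42100000 to 63000000 fragments per library, so counting error is small for these genes, whose lowest value in any library was 13.77 FPKM. MDA-MB-468 had keratin 5 at 698 to 876 FPKM in its control libraries and vimentin at 11.6 to 14.1 FPKM. In the other lines keratin 5 was at 0.667 FPKM or less and vimentin at 816 FPKM or more. MDA-MB-157 also had the fibroblast-associated collagen gene COL3A1 at 342 to 421 FPKM. The receptor genes ESR1 and PGR have no row in the table. The libraries are not stranded, so where a member overlaps a gene on the other strand (35 members) the reads of both cannot be told apart. 1 library stood apart: in MDA-MB-231 thalidomide replicate 1 the members' median was 0.27 lower on the log2 scale than the mean of the line's controls, while the other 3 control libraries were 0.05, 0.09 and 0.12 higher. The main counts, medians and named changes in MDA-MB-231 are therefore also given without it.

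Together the 77 genes made up 8.51% to 11.24% of the summed FPKM of a library, although they are far fewer than 1 in 100 of the genes measured. In MDA-MB-157 their share was 8.89% to 9.27% in the control libraries, 9.13% and 9.49% with BETi-211, and 9.79% and 10.1% with BETd-246. The MDA-MB-231 controls had 9.13% to 10.7%, its BETi-211 libraries 10.3% and 10.6%, and its BETd-246 libraries 11.24% and 10.95%. In MDA-MB-468 it was 8.51% to 9.01%, then 9.54% and 9.62%, then 9.90% and 9.78%. The BETd-246 libraries stood above all control libraries of their line in all 3 lines, and the BETi-211 libraries did so only in MDA-MB-468.

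**Figure D1:**
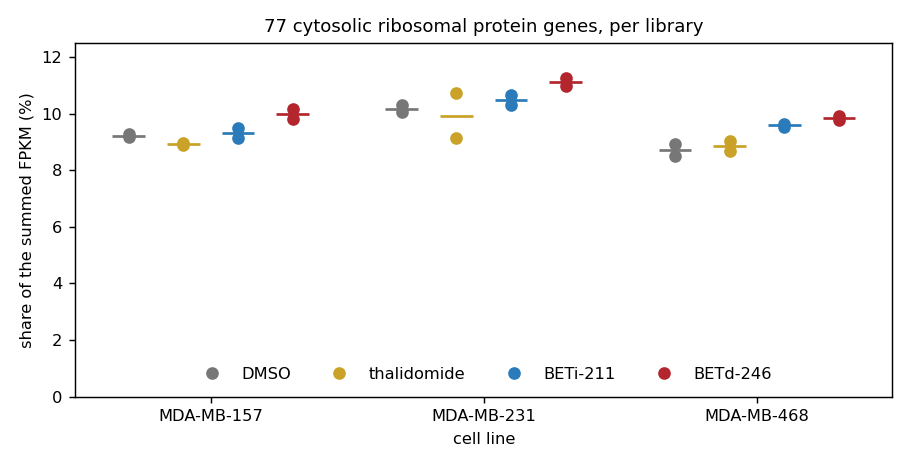
Share of each library's summed FPKM that came from the 77 genes (y axis, percent), by cell line and treatment (x axis). Each point is a library and each line the mean of 2. The BETd-246 libraries are the highest of each line, and 1 thalidomide library of MDA-MB-231 is the lowest of that line at 9.13%.

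All 77 genes had reads in all 24 libraries. Their mean levels ran from 46.98 FPKM (RPL9) to 2160 FPKM (RPS18), a 46.0-fold range, with a median of 571 FPKM against 11.96 FPKM for the 11969 other protein-coding genes. At least 100 FPKM was reached by 69 members, and at least 1000 FPKM by 11. Of the 100 genes with the highest means in the table, 44 were ribosomal protein genes. The highest were RPS18, RPL39, RPL37A, RPS6 and RPS19, and the lowest RPL9, RPL7, RPL21, RPS28 and RPL36A. Proteins that for the most part enter the ribosome in equal numbers thus had transcripts that differed widely in measured level. The number of pseudogenes was one measured property that varied with it. GENCODE lists 1132 pseudogenes named after 76 of the members. The 16 members with 20 or more had a median mean level of 262 FPKM, and the 61 others 629 FPKM (Spearman's rho of level and pseudogene number -0.34 across the 77 genes, which are not independent). How far reads shared with pseudogenes set a member's level was not tested. The members had short coding regions, with a median of 456 bases against 1392 bases in the other coding genes, and 28 of them hold 60 small nucleolar RNA genes in their span. Hosts and the other members had similar median levels, 550 and 576 FPKM.

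The order of the members was much the same in the 3 lines. Spearman's rho between their control levels was 0.79 for MDA-MB-157 and MDA-MB-231, 0.77 for MDA-MB-157 with MDA-MB-468, and 0.87 for MDA-MB-231 and MDA-MB-468, across 77 genes in the same 12 control libraries. RPS18, a protein of the small subunit's head (chr6:33272010-33276510, plus strand), had control levels of 1876, 1782, 1804 and 1751 FPKM in MDA-MB-157, 2604, 2674, 2214 and 2740 FPKM in MDA-MB-231, and 1682, 1500, 1739 and 1594 FPKM in MDA-MB-468, the DMSO libraries first. The MDA-MB-231 libraries were all above those of the other lines.

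Single members nonetheless differed strongly between lines. With limma on log2(FPKM + 1), 26 members were called higher and 45 lower in MDA-MB-157 than in MDA-MB-231 (of all genes, 50.1% and 37.2%), that is, at an adjusted p below 0.05 over all 14114 genes. Between MDA-MB-157 and MDA-MB-468 the counts were 31 and 33 (of all genes, 46.0% and 42.1%), and between MDA-MB-231 and MDA-MB-468 they were 36 and 23 (of all genes, 38.4% and 47.8%). The members' median differences were -0.30, 0.01 and 0.06 in that order, against 0.13, 0.04 and -0.08 for all genes. These line comparisons share control libraries with each other. With all libraries rescaled to the members' own median, the first median was 0.04. Without MDA-MB-231 thalidomide replicate 1, 23 members were called higher and 49 lower in MDA-MB-157 than in MDA-MB-231 (of all genes, 50.5% and 37.8%). The median was then -0.35. Likewise 42 were called higher and 21 lower in MDA-MB-231 than in MDA-MB-468 (of all genes, 38.7% and 48%), with a median of 0.14.

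The largest differences were in a few named members. RPS20, a protein of the small subunit's head, had 992.8, 999.8, 967.4 and 946.4 FPKM in the MDA-MB-157 controls, 324.6, 335.7, 278.7 and 360.3 FPKM in MDA-MB-231, and 441.2, 417.2, 429.2 and 413.6 FPKM in MDA-MB-468. No library of MDA-MB-157 overlapped the other lines, and the difference to MDA-MB-231 was 1.59 ± 0.06 (log2, SE, adjusted p = 6.02e-14 with limma), or 1.499 without thalidomide replicate 1 of MDA-MB-231. RPS15, a small-subunit protein near the decoding site (chr19:1438358-1440494, plus strand), went the other way, at 134.2, 117.7, 154.3 and 154.2 FPKM in MDA-MB-157 and 416.6, 442.2, 403.2 and 468.2 FPKM in MDA-MB-231. MDA-MB-468 lay close to MDA-MB-157, at 161.6, 155.9, 179 and 185.6 FPKM. RPS19, the gene first linked to Diamond-Blackfan anaemia, a red cell aplasia caused by loss of 1 copy of a ribosomal protein gene, had a mean of 466.6 ± 18.1 FPKM (SD, n = 4) in MDA-MB-157. It was at 1394 ± 92.7 FPKM in MDA-MB-231 and, for MDA-MB-468, at 1665 ± 101 FPKM. RPL39, a small protein of the tunnel exit on the X chromosome, was at 2277 ± 261, 824.7 ± 93.9 and 1563 ± 99.1 FPKM. Between MDA-MB-157 and MDA-MB-231, RPL18 (-1.34), RPL21 (-1.34) and RPL10A (-1.33) were the next lowest, and RPS4X (1.30), RPL7 (1.10) and RPS14 (0.96) the next highest. Against MDA-MB-468, MDA-MB-157 was lower in RPL13 (-1.50) and RPS16 (-1.47) and higher in RPL30 (1.46), RPL28 (1.28), RPL26 (1.15) and RPS14 (1.11). MDA-MB-231 exceeded MDA-MB-468 most in RPS15 (1.34), RPL34 (1.18), RPS28 (1.11), RPL28 (1.05) and RPL27 (0.96), and was lower in RPL39 (-0.93), RPL10 (-0.93) and RPL11 (-0.90).

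The members lie on 21 chromosomes, and their differences between lines went with those of the genes around them. For each member, the median difference of the other genes within 5 Mb was taken. Across the 77 members, the member's own difference and that of its neighbours had a Spearman's rho of 0.83 between MDA-MB-157 and MDA-MB-231, 0.72 for MDA-MB-157 against MDA-MB-468 and 0.70 between MDA-MB-231 and MDA-MB-468. They had the same sign in 58, 57 and 59 of 77. Without MDA-MB-231 thalidomide replicate 1 the values that involve this line were 0.84 and 0.70, with the same sign in 59 and 55. The points share libraries, and members near each other share neighbours, so these are descriptions. The 4 members on chromosome 8 (RPL7, RPL8, RPL30 and RPS20) were all higher in MDA-MB-157 than in either other line, with medians of 0.97 and 1.13, where the other genes of that chromosome had 0.67 and 0.84. RPS20 itself, at 1.59, had 21 neighbours with a median of 1.19 (quartiles 0.71 and 1.98). The 12 members on chromosome 19 had medians of -0.98 in MDA-MB-157 against MDA-MB-231 and -0.70 against MDA-MB-468, where the chromosome's other genes had 0.04 and -0.33. Of these 12, 2 and 4 were above 0, RPL28 at 1.28 against MDA-MB-468 among them. All 4 X-linked members were lower in MDA-MB-231 than in MDA-MB-468 (median -0.76, other X-linked genes -0.27). Without thalidomide replicate 1 the medians that involve MDA-MB-231 were 0.89 on chromosome 8, -1.05 on chromosome 19 and -0.68 on the X chromosome. DNA copy number was not measured here.

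**Figure D2:**
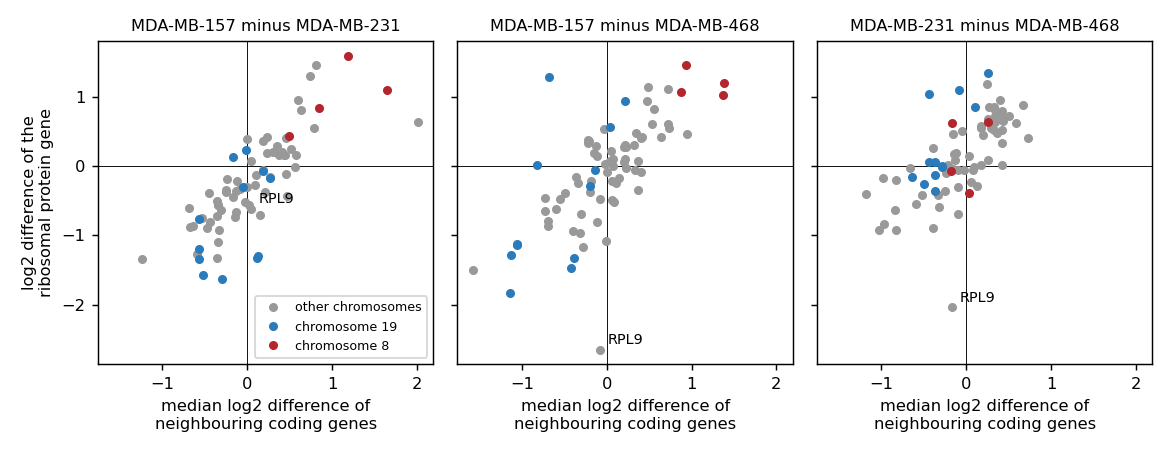
Difference between lines in the control libraries for each of the 77 members (y axis, log2) against the median difference of the other genes within 5 Mb (x axis, log2), 1 panel per pair of lines and 1 point per member. Points rise from lower left to upper right in each panel, and RPL9 lies far below the rest in both panels that involve MDA-MB-468.

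RPL9, a large-subunit protein (chr4:39452521-39458949, minus strand), was the widest exception. Its control libraries had 14.83, 14.26, 13.77 and 14.6 FPKM in MDA-MB-157, 24.32, 22.72, 18.36 and 25.19 FPKM in MDA-MB-231, and 101.8, 94.22, 96.88 and 89.42 FPKM in MDA-MB-468. The lines did not overlap, and MDA-MB-157 was lower than MDA-MB-468 by -2.65 ± 0.07 (log2, SE, adjusted p = 3.95e-16 with limma), while the 26 genes around it had a median of -0.08. The table also holds RPL9P9, a transcribed processed pseudogene of RPL9 (chr15:82372196-82372912, minus strand). Its control means were 103, 114 and 4.85 FPKM, so that it was low in MDA-MB-468, where RPL9 was highest. Between MDA-MB-157 and MDA-MB-231 both had the higher mean in MDA-MB-231. The sum of both was 117 ± 4.2, 136 ± 10.9 and 100 ± 5.7 FPKM (SD, n = 4). Between MDA-MB-468 and either other line the sum differed far less than either part. Whether reads of one were assigned to the other was not tested, and the level of RPL9 is therefore uncertain in all lines.

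**Figure D3:**
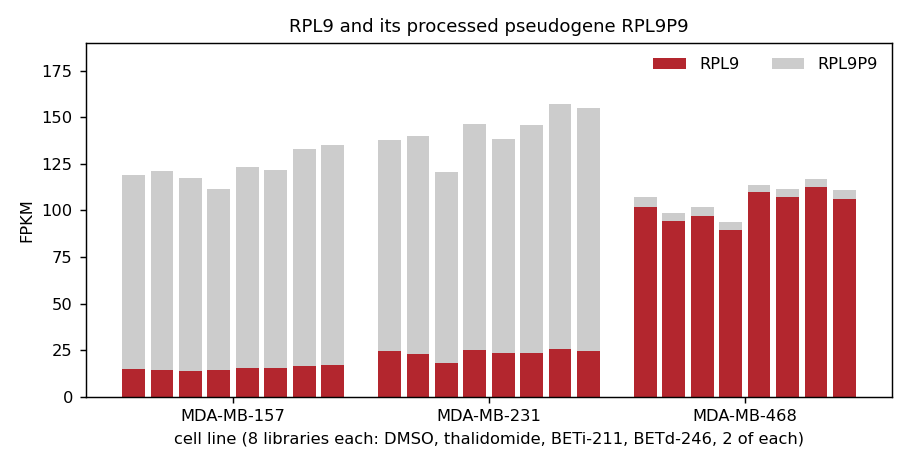
FPKM of RPL9 (red) and its processed pseudogene RPL9P9 (grey), stacked, in each of the 24 libraries (y axis, FPKM; x axis, 8 libraries a line). RPL9P9 takes most of the bar in MDA-MB-157 and MDA-MB-231 and almost none in MDA-MB-468, and the bars have similar heights.

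BETd-246 was set against the 4 control libraries of each line. Nearly all ribosomal protein genes rose, by a small and even amount. With limma, 73, 73 and 67 of the 77 members were called higher (of all genes, 19%, 14.8% and 20.1%) and 0 were called lower (of all genes, 32.4%, 33.3% and 33.7%), where an unadjusted p below 0.05 was reached by 75, 75 and 71. The median change was 0.24, 0.25 and 0.24 (log2), that is, 1.18-, 1.19- and 1.18-fold, while the median of all genes was -0.03, -0.05 and -0.03. The quartiles of the members' changes were 0.21 and 0.27, 0.22 and 0.27, and 0.22 and 0.29, in the same order. Both BETd-246 libraries were above all 4 controls for 74, 73 and 73 members (of all genes, 25.4%, 19.9% and 25%). The subunits moved alike, with medians of 0.23, 0.25 and 0.25 for the large and 0.26, 0.25 and 0.24 for the small one. Other strongly expressed genes rose as well. The 726 other genes of at least 100 FPKM had medians of 0.15, 0.17 and 0.17, and 53.03%, 63.4% and 60.5% of them were called higher.

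RPS18 went from control levels of 1751 to 1876 FPKM to 2167 and 2140 FPKM in MDA-MB-157. It went from 2214 to 2740 FPKM to 3156 and 3124 FPKM in MDA-MB-231, and from 1500 to 1739 FPKM to 2035 and 1902 FPKM in MDA-MB-468. Its treated libraries did not overlap the controls in any line. Among the larger rises in MDA-MB-157 was that of RPS15, 0.37 ± 0.06 (SE, adjusted p = 3.54e-05 with limma). The largest in MDA-MB-231 was in RPL36A, 0.41 ± 0.07 (adjusted p = 0.000195), followed by RPS27, whose product carries a zinc finger, at 0.37 ± 0.08 (0.00212), or 0.35 and 0.26 without thalidomide replicate 1, with both calls kept. In MDA-MB-468, RPL28 and RPS15 rose by 0.41 ± 0.08 and 0.41 ± 0.06 (adjusted p = 0.000649 and 1.2e-05 with limma), ahead of RPS28, RPS16 and RPS2. The rise of RPL28 was 0.59 against DMSO alone and 0.22, no longer called, against thalidomide alone, and that of RPS15 was 0.51 and 0.31. The 2 kinds of control have to be read apart for RPS15 in MDA-MB-157 too, where it had 134.2 and 117.7 FPKM with DMSO, 154.3 and 154.2 FPKM with thalidomide, and 180.4 and 181 FPKM with BETd-246. The DMSO libraries were the lowest and the BETd-246 libraries the highest.

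The members that did not pass the test were few. In MDA-MB-157 they were RPS3, RPL39, RPL14 and RPL28, the last with 275 to 330.2 FPKM in the controls and 318.2 and 315.2 FPKM with BETd-246 (0.09 ± 0.08, adjusted p = 0.392 with limma). In MDA-MB-231 they were RPS29, RPS7, RPL28 and RPL9. Without thalidomide replicate 1 of that line RPL28 passed (0.22), and RPL39, RPL41, RPS21, RPL17, RPS3A, RPL8, RPL13A and RPS9 did not. In MDA-MB-468 there were 10, namely RPS29, RPL9, RPL17, RPL34, RPL39, RPL26, RPL21, RPS3A, RPL7 and RPL36A. RPL36A, a large-subunit protein gene on the X chromosome (chrX:101390824-101396154, plus strand), had 95.66 to 105.5 FPKM in the MDA-MB-468 controls and 113.1 and 97.8 FPKM with BETd-246 (0.05 ± 0.07, adjusted p = 0.587 with limma). In MDA-MB-231 it had 58.67 to 71.44 FPKM and then 91.59 and 87.58 FPKM, without overlap. The difference between these responses, 0.36 ± 0.10, was the only one of the 77 called between lines for BETd-246 (adjusted p = 0.0277 with limma; of all genes, 8.45% were called higher and 4.82% lower in that test). It kept its call in 6 of the 12 fits that left out 1 library and ranged from 0.26 to 0.47. Without MDA-MB-231 thalidomide replicate 1 it was 0.30 and still called. In that fit RPL35 (-0.16), RPL37 (-0.19), RPS15 (-0.22), RPL8 (-0.23) and RPS28 (-0.27) were also called, lower in MDA-MB-231 than in MDA-MB-468. The share of all genes called in that fit is not given here. For the other pairs of lines the count was 0 with limma, and an unadjusted p below 0.05 was reached by 0 members for MDA-MB-157 against MDA-MB-231 and by 1 for MDA-MB-157 against MDA-MB-468 (of all genes, 6.23% and 9.06% were called higher and 5.01% and 4.02% lower). Across the members, the size of the BETd-246 change had a Spearman's rho of 0.39, 0.35 and 0.09 between the same pairs of lines, MDA-MB-231 and MDA-MB-468 last.

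**Figure D4:**
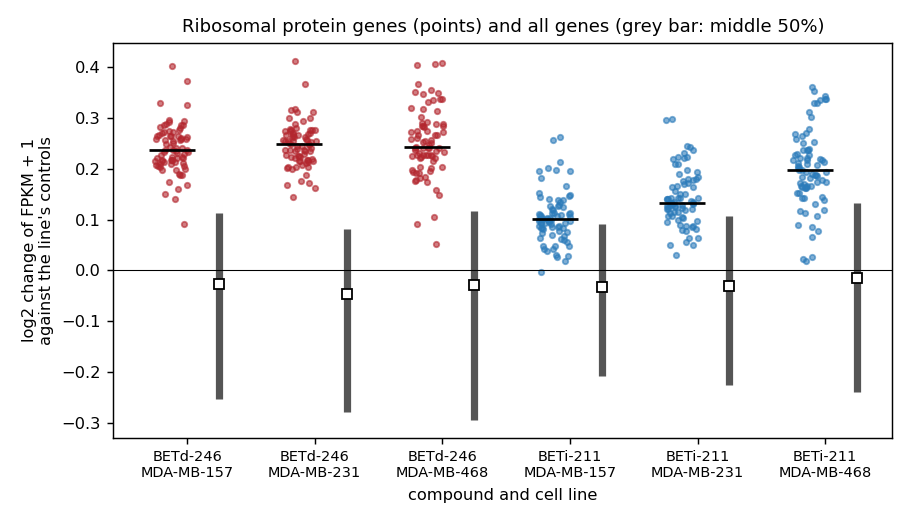
Log2 change against the controls of the line for the 77 members, with BETd-246 and BETi-211 in each line. Each point is a member, and the median over all 14114 genes is drawn for comparison. With BETd-246 all members lie above 0, at medians of 0.24, 0.25 and 0.24.

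By role, the rise was spread over the ribosome, with 73, 73 and 67 of all 77 members and 19%, 14.8% and 20.1% of all genes called higher for comparison. The stalk proteins RPLP0, RPLP1 and RPLP2, which recruit the translation factors that use GTP, all rose in all 3 lines (3 of 3 each, medians 0.26, 0.28 and 0.30). RPLP1 went from 473.4 to 487.9 FPKM in the MDA-MB-157 controls to 547.6 and 579 FPKM, and from 433.1 to 472.4 FPKM in MDA-MB-468 to 558.9 and 541.5 FPKM, without overlap. RPL5 and RPL11, which bind 5S RNA and can restrain MDM2 when ribosome assembly is disturbed, both rose in all lines, with changes between 0.20 and 0.27. Of the 3 proteins listed as near the peptidyl transferase centre, RPL3, RPL4 and RPL10, all rose in each line (medians 0.22, 0.21 and 0.25). These 3 also rose in MDA-MB-231 without thalidomide replicate 1. Of the 7 tunnel exit proteins, 6, 7 and 4 rose, and of the 6 proteins lining the mRNA channel 5, 6 and 5. The 17 members mutated in Diamond-Blackfan anaemia rose in 17, 15 and 15 cases, with medians of 0.26, 0.25 and 0.23. Without thalidomide replicate 1 in MDA-MB-231, 5 of the 7 tunnel exit proteins, 5 of the 6 channel proteins and 15 of the 17 rose. In that fit 66 of all 77 members and 13.1% of all genes were called higher.

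Genes that work beside the members but fall outside the rule were taken from a fixed list, and their counts stand beside 19%, 14.8% and 20.1% of all genes called higher and 32.4%, 33.3% and 33.7% called lower. With BETd-246, FAU, which encodes a ribosomal protein fused to a ubiquitin-like protein, rose by 0.21, 0.21 and 0.31 (adjusted p = 0.00542, 0.00561 and 0.000253 with limma). GNB2L1, also called RACK1, a scaffold on the small subunit, rose by 0.23, 0.18 and 0.23 (adjusted p = 0.00464, 0.0221 and 0.00362). The 6 measured paralogs of members gave 2, 0 and 0 higher and 2, 0 and 1 lower, with medians of 0.00, 0.06 and 0.06. RPL22L1, the paralog of RPL22, fell by 0.40 in MDA-MB-157 and by 0.27 in MDA-MB-468. Of 19 genes listed for TOP transcripts, most but not all of them translation factors, 9, 14 and 11 rose and 1 fell in each line (medians 0.15, 0.20 and 0.19). EEF2, the factor that moves the ribosome along the transcript, rose by 0.26, 0.22 and 0.31, and EIF4A2, an RNA helicase, fell by 0.40, 0.52 and 0.31. Of 24 other translation factors, 4, 8 and 8 rose and 2, 2 and 1 fell (medians 0.03, 0.07 and 0.06). EIF5, which triggers GTP hydrolysis at the start codon, fell by 1.11, 0.73 and 0.26. No test of the lists against other genes was made.

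How the libraries are put on one scale set the size of this rise. After division by the column total the members' median with BETd-246 was 0.14, 0.15 and 0.14, with 42, 52 and 52 called higher (of all genes, 7.60%, 4.68% and 9.03%). It was 0.40, 0.45 and 0.43 after median-of-ratios scaling, with 77 of 77 called in each line (of all genes, 40.8%, 40.4% and 42.4%). That scaling raised the median of all genes by 0.12, 0.13 and 0.12, so relative to it the members stood 0.31, 0.37 and 0.34 higher, against 0.26, 0.30 and 0.27 in the deposited values. Quantile normalization, which gives all libraries the same distribution, raised the median of all genes by 0.10 in each line and left the members at 0.06, 0.05 and 0.07, with 28, 20 and 23 called higher and 0, 0 and 2 lower (of all genes, 37.9%, 34.1% and 38.4% higher and 23.2%, 20.8% and 23.1% lower). Relative to the median of all genes they then stood at -0.012, -0.00095 and -0.0048. The members' median with BETd-246 was above 0 under these scalings and upper-quartile scaling. It was 0.19, 0.22 and 0.20 after scaling to the total without mitochondrial genes and members. Under quantile normalization it stood above the median of all genes in none of the lines. Other shares moved at the same time: the mitochondrial genes took 7.18% to 8.33% of the FPKM sum in the MDA-MB-468 controls and 9.55% and 9.74% with BETd-246, and the median FPKM of all genes fell from 9.69 to 10.1 in those controls to 7.89 and 7.94. Their part in the members' rise was not tested. Without MDA-MB-231 thalidomide replicate 1, 66 members were called in that line with a median of 0.17. The median was 0.24 and 0.23 without BETd-246 replicate 1 or 2 of MDA-MB-157. It was 0.22 without BETd-246 replicate 1 in MDA-MB-231 and 0.23 without BETd-246 replicate 1 in MDA-MB-468. In these fits 1 arm has a single library, and fewer members and a smaller share of all genes were called higher.

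The inhibitor gave a smaller median rise. BETi-211 was compared with the same control libraries as BETd-246, so the 2 comparisons share them. With limma, 10, 21 and 50 members were called higher (of all genes, 14.9%, 18.7% and 21.3%) and 0 were called lower (of all genes, 30.9%, 31.4% and 32.5%), with medians of 0.10, 0.13 and 0.20. The share of members called higher was thus 12.99%, 27.3% and 64.9%, below that of all genes in MDA-MB-157 and above it in the other lines. This order was not stable. In MDA-MB-157, 68 of 77 were called after upper-quartile scaling (of all genes, 27.4%) and 43 after median-of-ratios scaling (24.2%). There were 20 after scaling to the total without mitochondrial genes and members (14.6%) and 33 with the line fitted alone (16.6%). All were above the share of all genes. In MDA-MB-231, 11 were called against DMSO alone (of all genes, 16.2%) and 3 with the line fitted alone (14.5%), both below it. Both BETi-211 libraries lay above all controls for 53, 26 and 71 members (of all genes, 22.1%, 22.4% and 27.2%). The 726 other genes of at least 100 FPKM had medians of 0.04, 0.10 and 0.13. In MDA-MB-231 the median was 0.06 without thalidomide replicate 1, with 18 called higher (of all genes, 18.4%). Without thalidomide replicate 2, the highest control of that line, it was 0.22, with 76 called higher (of all genes, 24.5%). Without BETi-211 replicate 2 there it was 0.10, and fewer members were called. For MDA-MB-157, 6 were called higher when DMSO replicate 2 was left out (of all genes, 13.4%) and 5 without thalidomide replicate 2 (13.4%). Without BETi-211 replicate 1 or 2 of that line the median was 0.12 and 0.09, again with fewer calls. For MDA-MB-468, 33 were called higher when DMSO replicate 2 was left out (of all genes, 19.1%). Without BETi-211 replicate 1 or 2 the median there was 0.20 in each fit, with fewer calls. Under quantile normalization the members' medians were 0.00, -0.01 and 0.01, with 9, 9 and 12 called higher and 1, 12 and 4 lower (of all genes, 24.6%, 25.6% and 28% higher and 25.8%, 25.1% and 26.8% lower).

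Some members passed the test with BETi-211 in all lines. RPL12, a protein at the base of the stalk (chr9:127447674-127451405, minus strand), had 250.5, 251.5, 254.8 and 247.3 FPKM in the MDA-MB-157 controls and 285.6 and 291.6 FPKM with BETi-211. In MDA-MB-231 it had 608.2, 629.8, 520.4 and 667.9 FPKM and then 721.2 and 763.9 FPKM, and in MDA-MB-468 575.9, 547.2, 579.6 and 566.6 FPKM and then 713.7 and 725.8 FPKM. The treated libraries were above the controls in all 3 lines, and the changes were 0.20 ± 0.07, 0.30 ± 0.07 and 0.34 ± 0.07 (adjusted p = 0.0216, 0.00146 and 0.00038 with limma). RPS20 rose by 0.20 ± 0.07, 0.30 ± 0.07 and 0.33 ± 0.07 (adjusted p = 0.0289, 0.0018 and 0.000732), from 413.6 to 441.2 FPKM to 527.1 and 541.7 FPKM in MDA-MB-468. RPS2, a protein at the entry of the mRNA channel, rose by 0.15 ± 0.04, 0.22 ± 0.04 and 0.34 ± 0.04 (adjusted p = 0.00734, 0.000358 and 4.72e-06). RPS26, which touches the mRNA at the exit of the channel, rose by 0.26, 0.25 and 0.20 (adjusted p = 0.00151, 0.00235 and 0.00962). Without thalidomide replicate 1 the MDA-MB-231 changes of RPL12, RPS20, RPS2 and RPS26 were 0.21, 0.21, 0.20 and 0.18, all still called. At the other end, RPL21 was at -0.003 in MDA-MB-157, with 40.55 to 41.64 FPKM in the controls and 40.91 and 41 FPKM with BETi-211. RPL29 was at 0.03 in MDA-MB-231, or -0.04 without thalidomide replicate 1, and RPL7 at 0.02 in MDA-MB-468.

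RPL12 and RPS20 were also taken relative to the members themselves. When each library was scaled to the members' own median, which removes whatever the group did together, RPL12 was higher with BETi-211 by 0.10, 0.12 and 0.16 (adjusted p = 0.0106, 0.00226 and 0.000262 with limma) and RPS20 by 0.10, 0.12 and 0.14 (0.0195, 0.00307 and 0.00103). They were the only members called higher in all 3 lines in this fit (of all genes, 5.90%, 6.63% and 6.36% were called higher), and they were singled out after their values were seen. In the same fit they were lower with BETd-246 than with BETi-211 in MDA-MB-231 (RPL12 -0.13, RPS20 -0.13) and likewise in MDA-MB-468 (-0.12 and -0.16), a comparison that uses the same BETi-211 libraries (of all genes, 25.2% and 20.7% were called lower). With BETd-246 neither was called relative to the members' median. There, RPS15 was called higher in MDA-MB-157 and in MDA-MB-468 (0.14 and 0.15, adjusted p = 0.0244 and 0.0128 with limma; of all genes, 0.475% and 0.687%), and RPS28 and RPS16 in MDA-MB-468. Called lower were 6 members in MDA-MB-231 and likewise 6 in MDA-MB-468 (of all genes, 78.5% and 62.1%), of which RPL35A was in both.

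The response to BETi-211 also differed in size between lines for a few members. RPLP1 had 473.4 to 487.9 FPKM in the MDA-MB-157 controls and 510.8 and 500.4 FPKM with BETi-211, while in MDA-MB-468 it went from 433.1 to 472.4 FPKM to 563.9 and 561.5 FPKM. The change in MDA-MB-157 less that in MDA-MB-468 was -0.25 ± 0.08 (adjusted p = 0.0418 with limma). For RPS2 it was -0.18 ± 0.06 (adjusted p = 0.0398). These were the only calls for BETi-211 between lines (of all genes, 12.1% were called higher and 9.52% lower in that test). The counts were 0 for MDA-MB-157 against MDA-MB-231 and for MDA-MB-231 against MDA-MB-468 with limma, where 0 and 2 members had an unadjusted p below 0.05 (of all genes, 7.53% and 13% were called higher and 9% and 8.95% lower). Leaving out 1 library ended the call of RPLP1 in 11 of 12 fits and that of RPS2 in 9 of 12, with the direction kept in all of them. How many members were called in the comparisons with MDA-MB-231 depended on which thalidomide library of that line was left out. Over the fits that left out 1 library, the members' median difference ran from -0.11 to 0.04 for MDA-MB-157 against MDA-MB-231. For MDA-MB-231 against MDA-MB-468 it ran from -0.14 to 0.01. The size of the BETi-211 change had a Spearman's rho across the members of 0.54, 0.57 and 0.47 between lines.

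BETd-246 and BETi-211 were given at different doses, 100 nM and 1000 nM, so their direct contrast compares these 2 conditions only. The members' median was 0.14, 0.11 and 0.05 higher with BETd-246, and 6, 7 and 1 members were called higher and 0 lower (of all genes, 24.2%, 17.8% and 20.1% were called higher and 22.3%, 23.9% and 23.2% lower). That is a smaller share of the members than of all genes in the deposited values. It turned after median-of-ratios scaling, with 61 of 77 called higher in MDA-MB-157 and 56 in MDA-MB-231 (of all genes, 39.1% and 37.3%). It also turned with MDA-MB-157 fitted alone, at 49 (26%). In MDA-MB-231 it turned after scaling to the total without mitochondrial genes and members, at 26 (21.4%). RPL22, a large-subunit protein that is not essential for translation, passed the test in each line, at 0.20 ± 0.06, 0.17 ± 0.06 and 0.17 ± 0.06 (adjusted p = 0.0185, 0.0487 and 0.0469 with limma). It had 89.57 and 86.92 FPKM with BETi-211 and 100.9 and 102.1 FPKM with BETd-246 in MDA-MB-157, 74.88 and 78.88 FPKM against 85.57 and 87.16 FPKM in MDA-MB-231, and 92.11 and 91.39 FPKM against 105 and 101.2 FPKM in MDA-MB-468. The others were RPL21 (0.27), RPS14, RPL7A, RPLP2 and RPL10 in MDA-MB-157, and RPS16 (0.26), RPL36A (0.24), RPS14, RPLP1, RPL29 and RPLP2 in MDA-MB-231. With any 1 of the treated libraries left out, a single library remains in that arm. The members' median was then 0.13 to 0.15 in MDA-MB-157, 0.07 to 0.14 in MDA-MB-231 and 0.03 to 0.08 in MDA-MB-468. Fewer members were called higher in each of these fits.

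The 2 kinds of control were compared with each other as well. For thalidomide against DMSO no member was called (count 0 with limma in each line), and 7, 4 and 8 had an unadjusted p below 0.05. Of all genes, 0.113%, 0% and 0% were called higher and 0.0709%, 0% and 0% lower. The members' medians were -0.04, -0.07 and 0.02. RPS15 was nearest to a call in MDA-MB-157, at 0.29 ± 0.06 (adjusted p = 0.0782 with limma), and in MDA-MB-468 RPL28 had 109.8 and 104.3 FPKM with DMSO and 134.1 and 143.2 FPKM with thalidomide (0.37 ± 0.10, adjusted p = 0.266). In MDA-MB-231 the median was 0.08 without thalidomide replicate 1, and without thalidomide replicate 2, which leaves the low library alone, 57 members were called lower and 0 higher (of all genes, 13.4% lower), with a median of -0.24.

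Which members rose more went with the base composition of their transcripts, and that held for the controls as well. Across the 77 members, Spearman's rho of the change with transcript GC content was 0.43, 0.13 and 0.69 with BETd-246 and 0.52, 0.23 and 0.64 with BETi-211. For thalidomide against DMSO it was 0.60, 0.63 and 0.77, where no member was called. Without thalidomide replicate 1 the MDA-MB-231 values were 0.26, 0.35 and 0.40, in the order BETd-246, BETi-211, thalidomide. The 11967 other coding genes had 0.25, 0.11 and 0.21 with BETd-246 and 0.13, 0.09 and 0.18 with BETi-211. For thalidomide against DMSO they had 0.62, 0.22 and 0.77. In MDA-MB-468 the 20 members of highest GC content (53.9% to 64.6%) had a median BETd-246 change of 0.33, and the 20 of lowest GC content (40.6% to 46.2%) 0.20. In MDA-MB-157 these medians were 0.26 and 0.21, and in MDA-MB-231 0.26 and 0.22. The part of base composition in the order of the members was not tested. Members that host small nucleolar RNA genes and those that do not had the same median change, 0.24, over the lines.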

How the data were processed

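TruSeq libraries were made with random primers from the total RNA of 24 cultures after removal of ribosomal RNA, per the labels' protocols, with a kit known not to keep strand. The authors deposited 1 table of FPKM values for 14114 genes. The table does not name its unit, which was inferred from the values. The submitters' processing notes name Bowtie 0.12.8, bcl2fastq 2.17.1.14 and the build GRCh38.p5. What program computed FPKM, with which annotation, gene filter and treatment of reads with several matches, is not given in the sources used here. Depth was estimated at 42100000 to 63000000 fragments per library, and no counting interval was computed, since counts are not in the files used here.

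Columns were matched to samples by name. Values were tested as log2(FPKM + 1) with limma 3.58.1 (R 4.3.3), 1 coefficient for each of 12 groups, a variance trend, two-sided tests and Benjamini-Hochberg adjustment over 14114 genes. A gene was called at an adjusted p below 0.05. There were 12 residual and 3.32 prior degrees of freedom. Changes and SEs are on that log2 scale, and levels are FPKM. The replicates are called independent in the series description without further detail, and p-values measure the spread between these libraries. On simulated data the procedure was tested before use. Coordinates are 1-based, from GENCODE version 29 on GRCh38, and start windows are from RefSeq on GRCh38.p14.

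The members, the role groups and the lists were chosen with earlier results of these data known. Named are the 5 largest and 5 smallest changes per compound and line, the 5 largest called differences each way per pair of lines, the 5 highest and 5 lowest levels and the role groups. A few items that this rule names are not reported here. Members named for other reasons were chosen after their values were seen. Alternatives were other scalings, pseudocount 0.1, a filter of 5 FPKM, no variance trend, other controls, lines fitted alone, a replicate block and leaving out each library. No alternative was added later.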

Additional observations from a re-analysis of the deposited data

Results flagged for a closer look

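For 3 members the change with a compound differed between 2 lines in the test of the difference itself. In each of these tests the share of members called was below that of all genes, whose shares are given above. RPL36A rose more with BETd-246 in MDA-MB-231 than in MDA-MB-468, by 0.36 on the log2 scale (limma, adjusted p = 0.0277). RPLP1 and RPS2 rose less with BETi-211 in MDA-MB-157 than in MDA-MB-468, by -0.25 and -0.18 (limma, adjusted p = 0.0418 and 0.0398). Over the 12 fits each that left out 1 library, these values ran from 0.26 to 0.47, from -0.28 to -0.23 and from -0.23 to -0.14. The call was lost in 6, 11 and 9 of them. With thalidomide alone as control, 0 members were called in both tests.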

How the results depend on the processing

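The first of 3 values is for MDA-MB-157, the next for MDA-MB-231, the last for MDA-MB-468 or, for differences between lines, for MDA-MB-157 against MDA-MB-231, then MDA-MB-157 against MDA-MB-468, then MDA-MB-231 against MDA-MB-468. As deposited, 73, 73 and 67 members were called with BETd-246, 10, 21 and 50 with BETi-211 and 6, 7 and 1 for BETd-246 against BETi-211. Of all genes, 19%, 14.8% and 20.1%, then 14.9%, 18.7% and 21.3%, then 24.2%, 17.8% and 20.1% were called higher. Quantile normalization gave 28, 20 and 25 with BETd-246, 16 with BETi-211 in MDA-MB-468, 18 (MDA-MB-231) and 12 (MDA-MB-468) for BETd-246 against BETi-211, 1 for thalidomide in MDA-MB-157, 1, 1 and 5 for differences of the BETd-246 change and 5, 0 and 9 for BETi-211. It turned RPL15 with BETd-246 in MDA-MB-157 (-0.012), RPL13A (-0.013) and RPS9 (-0.021) in MDA-MB-231 with the same compound, the members' median (-0.0089), RPL29 (-0.12), RPS14 (-0.17), RPL27A (-0.13) and RPS12 (-0.0059) with BETi-211 in MDA-MB-231, and RPL27A in MDA-MB-468 (-0.16). Upper-quartile scaling gave 68 and 72 with BETi-211 in the first 2 lines (of all genes, 27.4% and 29.1% called higher). For BETd-246 against BETi-211 there it gave 19 and 16 (of all genes, 26.3% and 21%), and for thalidomide in MDA-MB-157 1 (0.227%). Column-total scaling gave 42 with BETd-246 in MDA-MB-157 (of all genes, 7.60% called higher). It gave 5, 11 and 32 with BETi-211 (11.2%, 13.2% and 14.1%) and 1 for thalidomide in MDA-MB-157 (0.085%). Leaving mitochondrial genes and members out of the total gave 20 with BETi-211 in MDA-MB-157 (of all genes, 14.6% called higher). It gave 11, 26 and 4 for BETd-246 against BETi-211 (20.2%, 21.4% and 22%) and 1 for thalidomide in MDA-MB-157 (0.687%). For differences of the BETi-211 change it gave 1, 1 and 1. Median-of-ratios scaling gave 43 and 68 with BETi-211 in the first 2 lines (of all genes, 24.2% and 28.6% called higher). For BETd-246 against BETi-211 it gave 61, 56 and 24 (39.1%, 37.3% and 37.6%). Scaling to the members' median, by construction, left 2, 6 and 9 with BETd-246, 4, 11 and 14 with BETi-211, 0, 4 and 2 for BETd-246 against BETi-211 and 0 for the BETi-211 difference of MDA-MB-157 from MDA-MB-468. Of all genes, 0.475%, 0.765% and 0.687% were called higher with BETd-246 and 57.5%, 78.5% and 62.1% lower. With BETi-211 it was 5.90%, 6.63% and 6.36% higher and 35.2%, 46.7% and 47.5% lower. For the direct contrast it was 2.30%, 3.17% and 5.04% higher and 24%, 25.2% and 20.7% lower. Under this scaling, RPL15 and RPL7 with BETd-246 in MDA-MB-157 were at -0.084 and -0.075. For MDA-MB-231 the median was -0.037, RPL9 -0.14, RPL13A -0.12, RPS9 -0.12 and RPL8 -0.11, and for MDA-MB-468 the median was -0.011, RPL36A -0.20, RPL7 -0.16, RPS3A -0.15 and RPL26 -0.095. With BETi-211 in MDA-MB-231 the median was -0.041, RPL29 -0.14, RPS14 -0.12, RPL27A -0.12, RPS16 -0.12 and RPL34 -0.11, and in MDA-MB-468 RPL7 was -0.17, RPL36A -0.17, RPL22 -0.16, RPS3A -0.12 and RPL27A -0.11. The median of BETd-246 against BETi-211 in MDA-MB-231 was -0.0041, and that of MDA-MB-157 against MDA-MB-231 in the controls 0.042. A pseudocount of 0.1 gave 1 for the BETi-211 difference of MDA-MB-157 from MDA-MB-468. No variance trend gave 0 for BETd-246 against BETi-211 in MDA-MB-468 (of all genes, 19.9% called higher). DMSO alone as control gave 46 with BETd-246 and 11 with BETi-211 in MDA-MB-231 (of all genes, 9.62% and 16.2% called higher). It gave 1, 1 and 2 for differences of the BETi-211 change. Thalidomide alone gave, with BETi-211, 3 (MDA-MB-157) and 30 (MDA-MB-468), where 11.7% and 16.7% of all genes were called higher. It gave 0 for the BETd-246 difference of MDA-MB-231 from MDA-MB-468 and 0 for the BETi-211 difference of MDA-MB-157 from MDA-MB-468. Fitting each line alone gave 33 with BETi-211 and 49 for BETd-246 against BETi-211 in MDA-MB-157 (of all genes, 16.6% and 26% called higher). In MDA-MB-231 it gave 12, 3 and 0 with BETd-246, with BETi-211 and in their contrast (6.75%, 14.5% and 11%). It gave 3 for the direct contrast in MDA-MB-468 (22%) and 9 for the BETi-211 difference of MDA-MB-157 from MDA-MB-468. For differences between lines, the shares of all genes under these alternatives are not given here. The causes of these moves were not tested, apart from the scaling to the members.

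Leaving out 1 library gave 32 to 69, 31 to 76 and 37 to 68 calls with BETd-246, 2 to 10, 6 to 76 and 26 to 56 with BETi-211, 0 to 1, 0 to 6 and 0 to 0 for BETd-246 against BETi-211, and 0 to 2, 0 to 57 and 0 to 0 for thalidomide. Differences between lines gave 67 to 72, 62 to 64 and 58 to 64 in the controls, 0 to 1, 0 to 0 and 0 to 6 for the BETd-246 change and 0 to 14, 0 to 2 and 0 to 22 for BETi-211. A lone library left in an arm was assumed to vary like the others. The highest counts with BETd-246 and BETi-211 came from fits without 1 control library. There 15.7%, 21.1% and 19%, then 16.3%, 24.5% and 20% of all genes were called higher. With BETi-211 in MDA-MB-157, 10 of 77 members is the smaller share. The lowest counts came from fits with a lone treated library. The rest of these ranges have no share of all genes beside them, so they do not show whether members exceeded other genes. The members' median change did not turn in any fit in which only 1 library was left out, for the compounds against controls. The deviations of same-numbered libraries gave 18 correlations from -0.21 to 0.33, of which 6 were over 0.1 and 3 under -0.1. In MDA-MB-468 the DMSO, thalidomide and BETd-246 libraries gave 0.17 to 0.33 and BETi-211 with thalidomide -0.12, so the numbers were not taken as pairs in any line. With the replicate number as a block the counts were 75, 72 and 69 with BETd-246 and 9, 23 and 55 with BETi-211, all within 1.5 times. Of all genes, 18.9%, 14.6% and 20.2%, then 15.1%, 18.7% and 21.5% were called higher in that fit.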

Other observations

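Among the 26 ribosomal protein pseudogenes of the table, RPL7P19 stood out and was chosen after its values were seen. RPL7P19 is a processed pseudogene (chr5:138473744-138474361, plus strand), and it starts 4429 bases past the end of EGR1, an immediate-early transcription factor gene on the same strand. It had between 0 and 0.18 FPKM in all 18 control and BETi-211 libraries. The BETd-246 libraries had 4.53 and 3.87 FPKM of it in MDA-MB-157, 4.94 and 8.32 FPKM in MDA-MB-231, and 4.68 and 5.41 FPKM in MDA-MB-468. Every gene of the table had a highest group mean of at least 1.22 FPKM, a level that RPL7P19 reached only with BETd-246. Its place in the table thus hangs on the groups where it is high, so its contrast is a description only. EGR1 had 3.10 to 4.98 FPKM in the MDA-MB-157 controls, 13.8 and 16.1 FPKM with BETi-211 and 47.3 and 44.4 FPKM with BETd-246. The MDA-MB-231 libraries had 2.45 to 3.26, then 11.8 and 11.9, then 80.1 and 84.1 FPKM, and in MDA-MB-468 5.40 to 9.18, then 17.8 and 20.4, then 24.2 and 34.3 FPKM. The change of RPL7 itself with BETd-246 was 0.16, 0.24 and 0.09 (log2), called with limma in MDA-MB-157 and MDA-MB-231.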
